A study of Homo sapiens with 8 samples.

Results

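The response of macrophages to lipopolysaccharide (LPS), a cell wall component of Gram-negative bacteria, was taken from 4 of the 8 arrays of a study of epirubicin. These are the 2 arrays of PMA-differentiated THP-1 cells that received neither drug nor LPS (untreated) and the 2 arrays of cells given LPS at 100 ng/mL for 3 h without epirubicin, chosen by their sample titles. All 8 arrays, untreated ones included, come from cells of the one human monocytic leukaemia line THP-1 that had first been exposed to PMA at 100 ng/mL, a phorbol ester that makes them adhere and become macrophage-like. The other 4 arrays, from cells kept in epirubicin at 0.25 µg/mL for 24 h without or with the same LPS stimulus, entered the model for their spread and served as a second set of arrays at the end. The sources used here do not say whether the duplicates of a condition were separate cultures, so p-values measure the spread between these arrays only, which may be technical. RNA was taken from whole cultures, and fewer cells expressing a gene cannot be told apart from less RNA per cell.

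Cell identity was checked on marker lists. Of 13 measured macrophage markers, 12 had an untreated mean of at least 6 on the log2 scale, and the list's median was 14.83 without and 15.02 with LPS. The exception was MRC1, the mannose receptor, with untreated arrays at 2.39 and 3.10. Of 13 lymphocyte markers, CD79A, CD79B and NKG7 reached an untreated mean of 6, and of 11 fibroblast and epithelial markers only COL1A2 did, while the condition means of the T cell genes CD3D, CD3E and CD3G lay between 2.85 and 4.24. The called macrophage markers were CD14 and CSF1R, the receptor of a macrophage growth factor, both lower. Of the 13 macrophage markers 8 had a positive log2 fold change, and 3 were higher in limma at an unadjusted p under 0.05. In the fit of the 4 arrays alone 1 macrophage marker was called higher. Summed over the lymphocyte markers, the log2 values were 56.3 to 57.0 without and 59.5 to 61.1 with LPS, and CD79A, which encodes a chain of the B cell receptor, was called higher at 7.44 and 8.16 against 9.35 and 8.98, a call that was lost without untreated duplicate 1 or LPS duplicate 1. Their part in the results was not tested. Array means ran from 6.73 to 6.76 and the duplicates correlated across probe sets at 0.987 in both conditions, against 0.952 to 0.955 between conditions.

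LPS is bound by CD14 and handed to the receptor TLR4 with its partner MD-2, which LY96 encodes. The receptor signals through the adaptors MYD88 and TRIF to release NFκB from its inhibitors, to activate MAP kinases, and to induce interferon-β. In macrophages this is known to start a wave of cytokines, of transcription factors and of proteins that shut the signal down, while genes of the resting state are switched off.

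Repressed genes were about as numerous as induced ones, but their changes were smaller. A probe set was called where it differed by at least 2-fold and limma gave it an unadjusted p no larger than 0.01, the threshold that the study applied to effects of epirubicin, and "rose" and "fell" are used of called genes only. Of 20893 gene probe sets, 2451 were called (11.7%), 1132 of them higher with LPS (5.42%) and 1319 lower (6.31%). In all called probe sets the 2 LPS arrays lay beyond both untreated arrays, which also held for 23.1% (higher) and 29.8% (lower) of all probe sets whatever their call. After Benjamini-Hochberg adjustment a p of 0.05 or less was reached by 1045 of the called rises and 1189 of the called falls, and no called probe set had an adjusted p above 0.0721. The median called rise was 3.39-fold and the median called fall 2.84-fold. The gap widened in the tails, since 1 in 10 of the called rises exceeded 23.0-fold, whereas 1 in 10 of the falls exceeded 6.10-fold. Changes of at least 16-fold were called in 145 rises and 19 falls, and changes of at least 128-fold in 28 rises and no fall.

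**Figure D1:**
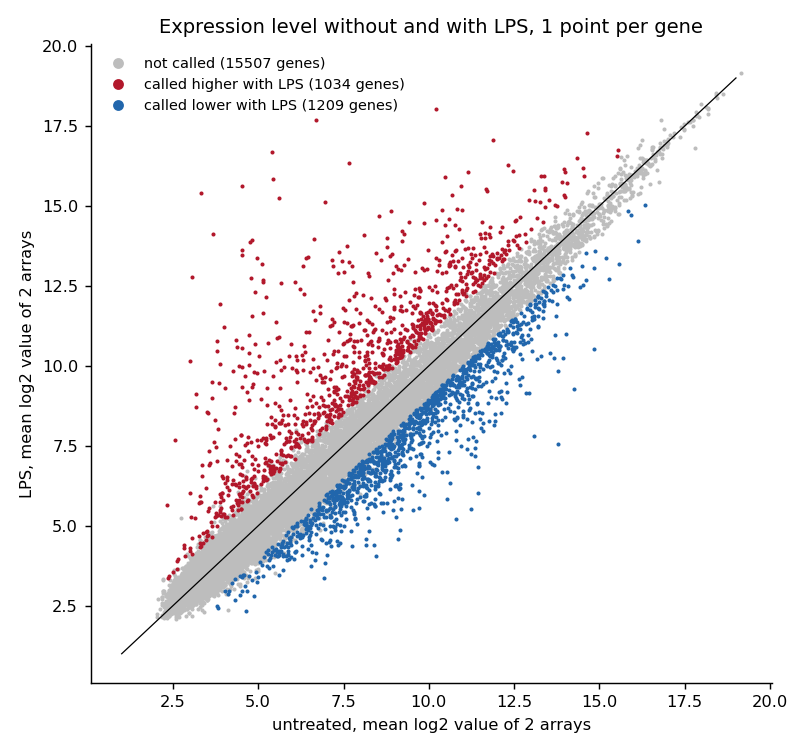
Mean log2 value of the 2 LPS arrays (vertical axis) against that of the 2 untreated arrays (horizontal axis), with 1 point for each of 17750 genes and the line of equal values. Called rises (red, 1034 genes) reach far above the line from low untreated values, whereas called falls (blue, 1209 genes) start mostly at intermediate and high values.

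Rises and falls started from different levels. Probe sets called higher had a median untreated value of 7.78 that went to 10.2, and those called lower went from 9.44 to 7.68. Among probe sets with an untreated mean of 10 to 12, 8.48% were called higher and 16.2% lower, while under 4 the shares were 1.96% and 0.0387%. Since few probe sets near background were called lower, the share of falls is also read against the 10131 probe sets with an untreated mean of at least 6, of which 12.1% were called lower and 7.84% higher. That filter admits genes by the condition in which falls are high. With a mean of at least 6 in whichever condition was higher, the shares were 11.5% lower and 9.7% higher. A total of 243 rises crossed from below 6 to 6 or more, and 335 falls ended below 6. Values below 6 lie near background and make the size of such fold changes uncertain: the 612 negative control rows of the array had a median of 3.88 and a 95th percentile of 6.96, and 4.58% of them met the call rule. Over all probe sets the median log2 fold change was −0.05.

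**Figure D2:**
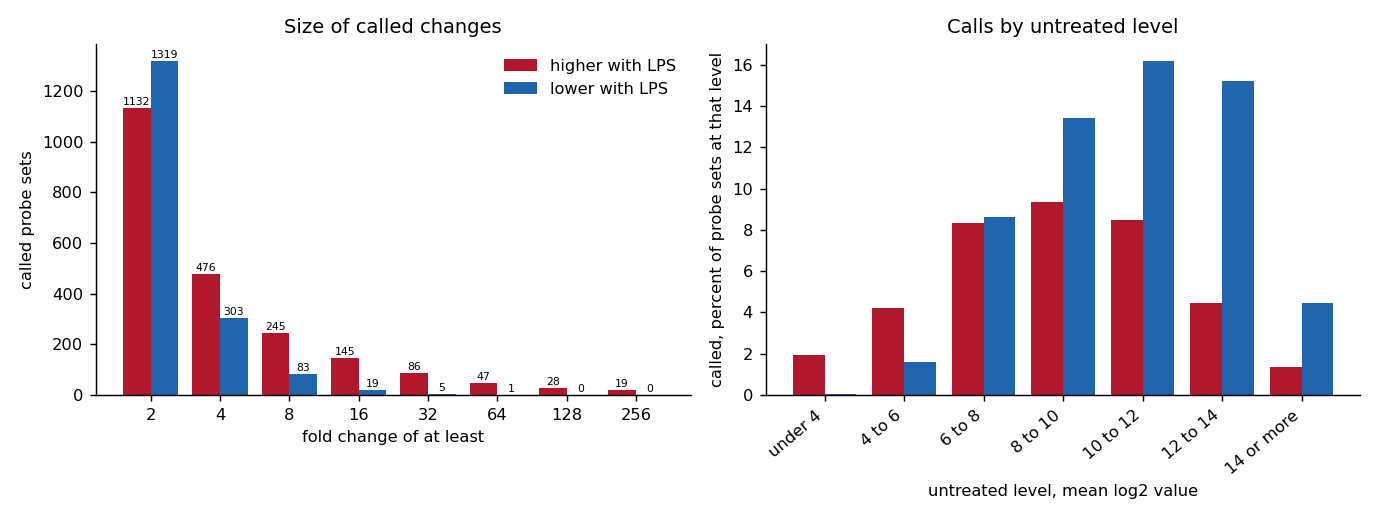
Left, called probe sets by smallest fold change (horizontal axis, each class holding those to its right), higher with LPS in red and lower in blue, from 1132 and 1319 at 2-fold to 19 and 0 at 256-fold. Right, share of probe sets called (percent) by mean untreated log2 value, where falls outnumber rises in each class from 6 to 8 upwards.

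RNA of the receptor gene TLR4 and of CD14 fell, while protein was not measured on these arrays. TLR4 measured 10.54 and 10.45 in the untreated arrays and 8.01 and 7.79 with LPS, which is −2.60 on the log2 scale (limma with 2 arrays in each condition, standard error 0.24, adjusted p = 0.000298). CD14, which delivers LPS to it, fell from 14.80 and 14.86 to 12.88 and 13.26 (−1.76, standard error 0.25, adjusted p = 0.00308). In both genes, as in every called fall, the LPS arrays lay below the untreated ones. LY96 did not pass the threshold, with 7.40 and 7.12 against 7.08 and 6.69 (−0.37, adjusted p = 0.696), and neither did MYD88 with 9.95 and 10.34 against 10.77 and 10.57 (0.52, adjusted p = 0.242). CD180, a TLR4 relative without a signalling domain that restrains TLR4 in myeloid cells, fell far more, from 14.11 and 14.42 to 9.31 and 9.22 (−5.00, standard error 0.27, adjusted p = 1.83e-05). In the opposite direction, the kinase IRAK2, which sustains signalling downstream of MYD88, rose from 2.83 and 4.97 to 9.85 and 10.27 (6.17, standard error 0.80, adjusted p = 0.00174), with untreated duplicates that differed widely near background. TRAF3, a ubiquitin ligase of the interferon branch, rose by 1.74. Of 15 measured receptor and adaptor genes, these 2 rose and the 3 named above fell, with a list median of 0.52. Of 11 genes listed with the other Toll-like receptors 3 fell and 0 rose. These were the receptor TLR6, which pairs with TLR2 (−1.40), and UNC93B1, a chaperone of the endosomal receptors and not itself a receptor (−1.54). The third was TLR5, the flagellin receptor, at 6.66 and 6.29 against 4.33 and 4.76. The call for TLR5 had an adjusted p of 0.072, and it was lost without any one of the 4 arrays, in the fit with duplicate number as a block, among probe sets with a mean of at least 6 and under both rescalings tried. TLR2 had log2 values of 7.58 and 7.77 without and 7.97 and 8.01 with LPS and was not called.

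Downstream of the receptor, genes of NFκB subunits and inhibitors rose. Of 19 measured subunit and inhibitor genes 13 rose and 0 fell, with a list median of 2.80. At an unadjusted p under 0.05 in limma 14 were higher and 0 lower. NFKB1, the p105 precursor, rose from 8.57 and 8.61 to 13.24 and 13.37 (4.71, standard error 0.22, adjusted p = 8.3e-06), and NFKB2, the p100 precursor, from 9.86 and 9.87 to 14.52 and 14.40 (4.60). The subunit genes REL and RELB rose by 4.07 and 4.16, while RELA stood at 11.54 and 11.36 against 11.67 and 11.69 (0.23, adjusted p = 0.621). NFKBIA, the classical inhibitor IκBα, rose from 10.61 and 10.36 to 15.88 and 15.94 (5.43, standard error 0.23, adjusted p = 4.8e-06). TNFAIP3, the ubiquitin-editing enzyme A20, rose from 11.52 and 12.24 to 17.02 and 17.07 (5.17, standard error 0.28, adjusted p = 1.75e-05). Both inhibitors were thus raised from an already high value in every LPS array.

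Immediate early transcription factors moved together, with 21 of 23 called higher, 0 lower in limma at either p and a median of 3.86. The orphan nuclear receptors NR4A1, NR4A2 and NR4A3 rose most among them. NR4A3 went from 3.37 and 2.77 to 13.00 and 12.58 (9.72, standard error 0.29, adjusted p = 1.15e-06), and NR4A2 from 4.26 and 3.10 to 14.18 and 14.06 (10.44, standard error 0.44, adjusted p = 4.32e-06). FOSB, an AP-1 subunit, rose from 5.01 and 4.94 to 13.41 and 13.31 (8.39), and EGR1, a zinc finger factor of the serum response, from 6.97 and 6.64 to 11.80 and 11.53 (4.86). MAFF (0.76) and CEBPD (1.0, just under 2-fold) were the members not called, and all 23 members had a positive log2 fold change.

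MAP kinase phosphatase genes and genes listed as signalling brakes rose in part. Of 12 dual-specificity phosphatases, which inactivate MAP kinases, 7 rose and 1 fell. DUSP1, which acts on p38 and JNK, rose from 7.13 and 6.78 to 15.28 and 14.96 (8.17, standard error 0.25, adjusted p = 1.26e-06), and DUSP5 (7.98) and DUSP2 (6.81), which act on ERK in the nucleus, rose by like amounts. DUSP7, a cytoplasmic ERK phosphatase, fell from 9.02 and 9.56 to 6.80 and 6.93 (−2.42, adjusted p = 0.00115). Of 19 genes of mRNA decay and cytokine signalling brakes 8 rose and 1 fell, with a median of 0.47. The ubiquitin ligase PELI1 rose by 6.14. RGS1 and RGS2, listed here though they regulate G proteins and not mRNA decay, rose by 5.43 and 4.99. Whether these genes act as brakes in these cells was not tested. ZFP36L2, which directs AU-rich mRNAs to decay, fell by 1.45 (adjusted p = 0.0122).

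Secreted mediators contributed the largest rises of all. The macrophage inflammatory proteins CCL3L3 and CCL3 went from 3.17 and 3.50 to 15.31 and 15.49 (12.07) and from 5.55 and 5.23 to 16.76 and 16.60 (11.29). These genes are near-identical copies, so that their probe sets may read each other's transcripts. CCL20, which attracts CCR6-bearing cells, rose from 4.23 and 4.84 to 15.62 and 15.63 (11.09, standard error 0.43, adjusted p = 3.38e-06). IL1B rose from 6.41 and 6.95 to 17.62 and 17.76 (11.01), and IL23A, the p19 subunit of interleukin-23, from 4.99 and 5.27 to 12.56 and 12.69 (7.49, standard error 0.27, adjusted p = 2.9e-06). TNFAIP6, a hyaluronan-binding protein, rose by 10.39. In each of these genes, as in every called rise, both LPS arrays were above both untreated arrays.

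**Figure D3:**
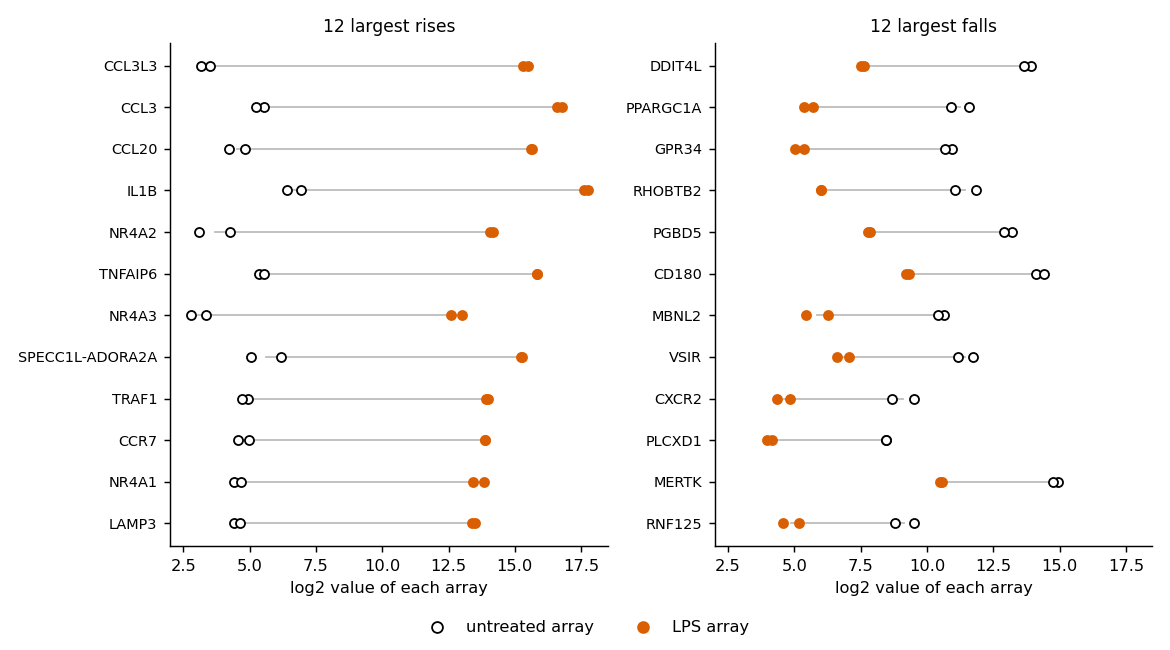
Log2 value of each array (horizontal axis) for the 12 genes with the largest called rises (left) and falls (right), with open circles for untreated arrays, filled circles for LPS arrays and a grey line between the condition means. Rises reach a log2 fold change of 12.07 in CCL3L3 and falls −6.23 in DDIT4L. The duplicates of one condition lie apart from those of the other, as in every called gene.

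The immediate promoters of CCL20 and IL23A are shown because they hold a match to the NF-κB consensus close to the start site. The 150 bases before the RefSeq start site are printed 5′ to 3′ on the gene's strand (GRCh38.p14; CCL20 at chr2:227813692-227813841 and IL23A at chr12:56338734-56338883, both on the plus strand). Capitals mark the matches to the NF-κB consensus, at −79 to −70 and at −95 to −86 counted from the start site, and the TATA box TATAAA.
CCL20: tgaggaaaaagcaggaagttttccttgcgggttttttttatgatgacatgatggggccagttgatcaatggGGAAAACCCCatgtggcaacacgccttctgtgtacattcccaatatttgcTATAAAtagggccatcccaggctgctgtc
IL23A: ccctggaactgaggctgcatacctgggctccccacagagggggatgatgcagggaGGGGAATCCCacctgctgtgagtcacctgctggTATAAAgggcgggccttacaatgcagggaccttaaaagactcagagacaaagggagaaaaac

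Beyond these leaders the secreted lists were selective. Of 36 cytokines and growth factors 20 rose and 1 fell, with a median of 2.58. TNF rose from 4.20 and 5.29 to 11.30 and 10.61 (6.21, standard error 0.40, adjusted p = 3.78e-05), IL10, an anti-inflammatory cytokine, by 4.52, and IL6 from 3.62 and 4.28 to 6.44 and 6.69 (2.62, adjusted p = 0.0133). IL12B, the shared subunit of interleukin-12 and interleukin-23, stayed near background at 3.07 and 2.93 against 3.72 and 2.86. The member that fell was TNFSF14, a ligand of the lymphotoxin β receptor, from 8.29 and 8.78 to 6.40 and 5.65 (−2.51, standard error 0.31, adjusted p = 0.00139). Of 25 chemokines 10 rose and 0 fell (1 at an unadjusted p under 0.05 in limma). The neutrophil attractants CXCL8 (8.67), CXCL1 (7.16), CXCL3 (5.45) and CXCL2 (4.04) all rose, whereas the monocyte attractant CCL2 was not called at 5.45 and 6.74 against 6.07 and 6.41 (0.15, adjusted p = 0.906). CCL5 was already at 15.59 and 15.51 without LPS and rose to 16.82 and 16.68 (1.20, adjusted p = 0.0104).

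Genes known from dendritic cell maturation rose as well. Of 20 genes of dendritic maturation and costimulation 13 rose and 0 fell (1 at an unadjusted p under 0.05 in limma), with a median of 2.79. CCR7, the receptor that guides mature dendritic cells to lymph nodes, went from 4.55 and 4.98 to 13.87 and 13.87 (9.11, standard error 0.24, adjusted p = 1.1e-06), and LAMP3, a lysosomal marker of dendritic maturation, from 4.42 and 4.63 to 13.50 and 13.40 (8.93). The costimulatory ligand CD80 rose from 4.51 and 3.24 to 12.06 and 11.83 (8.07), while its relative CD86 was not called at 9.01 and 8.34 against 7.69 and 8.03 (−0.82, adjusted p = 0.146). Both LPS arrays of CD86 lay below both untreated arrays, which held for 29.8% of all probe sets. IL7R, the interleukin-7 receptor, rose by 7.41 and TNFRSF9, the costimulatory receptor 4-1BB, from 11.02 and 11.29 to 16.11 and 16.04 (4.92).

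Survival, adhesion and metabolic genes rose in part. Of 21 survival and apoptosis regulators 9 rose and 0 fell (3 at an unadjusted p under 0.05 in limma), with a median of 0.66. The rises were led by the signalling adaptor TRAF1 (9.12) and the apoptosis inhibitor BIRC3 (7.0). BCL2A1, an anti-apoptotic BCL2 relative, rose from 10.48 and 11.27 to 14.14 and 14.40 (3.40), and the pro-apoptotic PMAIP1 rose as well, from 6.67 and 5.12 to 10.32 and 10.29 (4.41, adjusted p = 0.000478). Of 21 adhesion and coagulation genes 7 rose and 1 fell, among them the integrin subunit ITGB8 (6.68) and ICAM1 (4.69). SELPLG, the P-selectin ligand, fell by 2.10 (adjusted p = 0.0188), a call lost without LPS duplicate 2. Of 26 genes of itaconate, glycolysis and redox 9 rose and 2 fell, with a median of 0.05. SOD2, the mitochondrial superoxide dismutase, rose from 10.42 and 10.01 to 18.03 and 18.02 (7.81, standard error 0.26, adjusted p = 1.82e-06), whereas IDH1, the cytosolic isocitrate dehydrogenase, fell from 10.49 and 10.31 to 6.15 and 7.20 (−3.72, standard error 0.37, adjusted p = 0.000424). The other fall, of the hexokinase gene HK1, was of −1.04 and was lost under both rescalings and without untreated duplicate 1 or LPS duplicate 1. GAPDH, a glycolytic enzyme, stood at 18.54 and 18.37 against 18.43 and 18.33. Of 20 prostaglandin and leukotriene genes 5 rose and 2 fell: PTGS2, the inducible cyclooxygenase, rose by 4.57 and the prostaglandin E receptors PTGER2 and PTGER4 by 2.54 and 2.14, while the leukotriene receptor CYSLTR1 fell by 2.81 and the lysosomal phospholipase PLA2G15 fell by 3.11.

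Interferon-stimulated genes split. Of 43 measured, 12 rose (27.9%) and 5 fell (11.6%), against 5.42% and 6.31% of all probe sets, with a list median of 0.45. IFNB1, the inducing interferon, was at 3.65 and 2.88 without and 3.50 and 3.15 with LPS, near background in all 4 arrays. OASL, an antiviral sensor cofactor, rose from 4.76 and 4.88 to 11.70 and 11.41 (6.74, standard error 0.33, adjusted p = 1.12e-05), and IFIT2, which binds viral RNA, from 3.73 and 3.82 to 7.46 and 7.44 (3.68, adjusted p = 0.000202). IFI44 rose by 2.61. OAS1, which activates RNase L, fell from 11.40 and 11.79 to 9.38 and 9.51 (−2.15, standard error 0.33, adjusted p = 0.00445), the nuclear body protein SP110 from 13.22 and 13.18 to 11.29 and 11.11 (−2.0), and RTP4 from 7.57 and 7.25 to 4.39 and 4.53 (−2.95). The other called falls were SAMD9 (−1.54) and SP100 (−1.05). In OASL and OAS1, as in every called gene, the duplicates of the conditions did not overlap. The LPS arrays were above in OASL and below in OAS1.

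The repressed genes named by size belonged to many classes. DDIT4L, an inhibitor of mTOR signalling, fell from 13.91 and 13.66 to 7.62 and 7.50 (−6.23, standard error 0.24, adjusted p = 3.38e-06, 75.1-fold). PPARGC1A, the coactivator PGC-1α of mitochondrial biogenesis, fell from 11.59 and 10.89 to 5.71 and 5.36 (−5.70, standard error 0.42, adjusted p = 7.99e-05). GPR34, a lysophosphatidylserine receptor, fell from 10.96 and 10.66 to 5.36 and 5.03 (−5.61, standard error 0.44, adjusted p = 0.000114). In all 3 genes, as in every called fall, both LPS arrays lay below both untreated arrays. RHOBTB2 fell from 11.06 and 11.83 to 6.02 and 6.0 (−5.44), and PGBD5, derived from a transposase, from 13.22 and 12.91 to 7.86 and 7.76 (−5.26). MBNL2, a splicing regulator, fell from 10.65 and 10.41 to 6.25 and 5.45 (−4.68). VSIR, the inhibitory immune checkpoint VISTA, went from 11.72 and 11.18 to 7.07 and 6.59 (−4.62, adjusted p = 0.000104). CXCR2 (−4.49), PLCXD1 (−4.39), MERTK (−4.32) and RNF125, a ubiquitin ligase that restrains RIG-I (−4.27), completed the 12 largest, together with CD180 above. Among falls that still left an LPS mean of at least 8 were PDK2, a kinase that inhibits pyruvate dehydrogenase (−3.95), LRRC8C, a subunit of the volume-regulated anion channel (−3.76), and IPCEF1, which binds a cytohesin exchange factor (−3.77).

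Receptors for attractants and small ligands changed in both directions. Of 19 chemoattractant receptors 6 rose (31.6%) and 4 fell (21.1%), against 5.42% and 6.31% of all probe sets. Falls made up 33.3% of the 12 with an untreated mean of at least 6, against 12.1% of all such probe sets. This filter admits genes by the condition in which falls are high. The falls were CXCR2, which binds CXCL8, from 9.49 and 8.69 to 4.84 and 4.35 (−4.49, standard error 0.46, adjusted p = 0.000444), CCR2, the CCL2 receptor, from 9.77 and 9.28 to 5.34 and 5.63 (−4.04), CX3CR1, the fractalkine receptor (−3.23), and CCR1, a receptor of CCL3 and CCL5 (−2.88). Rises included CCR7, the scavenging receptor ACKR3 from 6.11 and 6.68 to 13.22 and 13.49 (6.96, standard error 0.29, adjusted p = 4.04e-06), and PTAFR, the platelet-activating factor receptor (2.42). Of 27 nucleotide and lysophospholipid receptors 7 rose (25.9%) and 6 fell (22.2%). The adenosine receptors went opposite ways: ADORA2A rose from 5.50 and 5.86 to 12.44 and 12.72 (6.90, standard error 0.24, adjusted p = 2.66e-06) and ADORA2B fell from 8.62 and 9.35 to 6.98 and 7.06 (−1.96, standard error 0.34, adjusted p = 0.0073). The readthrough gene SPECC1L-ADORA2A, which overlaps ADORA2A, rose by 9.65, and their signals cannot be told apart. GPR132 rose by 4.36 and the hydroxy-acid receptor HCAR3 by 5.11 from background, while SUCNR1, the succinate receptor, fell from 10.17 and 10.12 to 6.64 and 7.16 (−3.25).

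**Figure D4:**
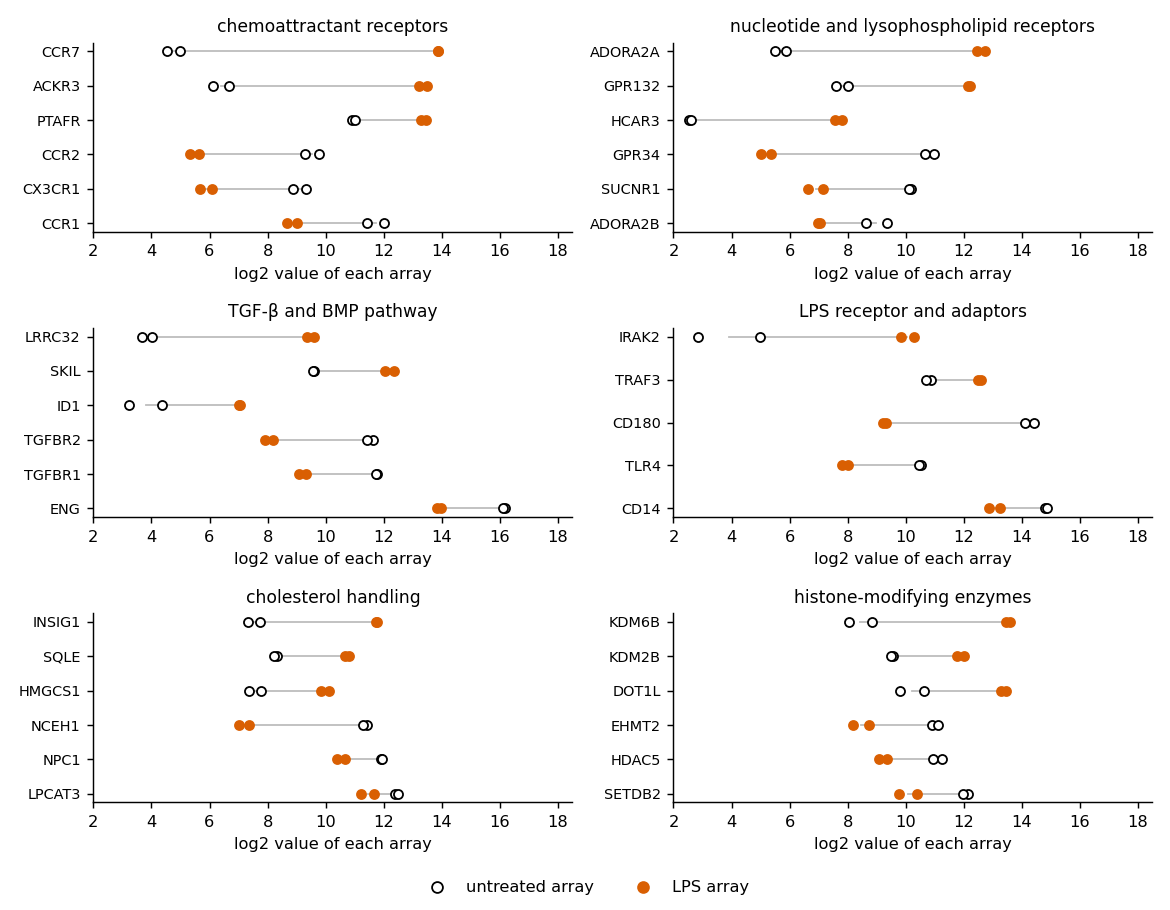
Log2 value of each array (horizontal axis) for the named called members of 6 gene lists, with open circles for untreated and filled circles for LPS arrays. In each panel the upper rows were raised by LPS and the lower rows lowered, such as CCR7 (9.11) against CCR2 (−4.04).

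Uptake receptors were called lower more often than higher in the fit of all 8 arrays. MERTK, the receptor tyrosine kinase by which macrophages engulf dying cells, fell from 14.92 and 14.76 to 10.56 and 10.48 (−4.32, standard error 0.22, adjusted p = 1.37e-05). CD300A, an inhibitory receptor for phospholipids, fell by 2.83 and FCGR1A, the high-affinity IgG receptor, from 12.44 and 12.38 to 10.58 and 10.93 (−1.66, adjusted p = 0.00404). Of 35 phagocytic and scavenger receptors these, CD300LF (−2.07) and the fungal receptor CLEC7A (−1.27) fell and 1 rose, OLR1, a receptor of oxidized LDL, from 10.29 and 10.96 to 13.29 and 13.23 (2.64, adjusted p = 0.00073). The list's median was −0.01 and 29 members were not called. Falls were 14.3% and rises 2.86% of the list, against 6.31% and 5.42% of all probe sets. The count of falls was 3 without LPS duplicate 1, and that of rises was 5 in the fit of the 4 arrays alone and 4 with a mean-dependent prior variance.

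The TGF-β pathway changed at several steps. Of 33 measured genes 10 rose (30.3%) and 6 fell (18.2%), against 5.42% and 6.31% of all probe sets, with a list median of 0.15. The type II receptor TGFBR2 fell from 11.64 and 11.43 to 8.20 and 7.92 (−3.47, standard error 0.25, adjusted p = 6.85e-05) and the type I receptor TGFBR1 from 11.76 and 11.74 to 9.33 and 9.09 (−2.54, standard error 0.23, adjusted p = 0.000259). The coreceptor ENG fell from 16.18 and 16.11 to 13.84 and 13.96 (−2.24). All 3 receptors were lower in both LPS arrays, as every called fall was. SKIL, a repressor of SMAD proteins, rose from 9.61 and 9.55 to 12.35 and 12.06 (2.63), while its relative SKI fell from 8.73 and 7.77 to 5.19 and 4.48 (−3.41, adjusted p = 0.000868). LRRC32, which holds latent TGF-β at the cell surface, rose from 4.01 and 3.67 to 9.59 and 9.36 (5.64), and ID1, a target of BMP signals, from 4.38 and 3.22 to 7.01 and 7.05 (3.23). The count of rises was 6 without untreated duplicate 2, LPS duplicate 1 or LPS duplicate 2.

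Among the lists described here, myeloid lineage factors and nuclear receptors had the largest shares called lower, 38.5% and 36.4% of measured members. Of 26 myeloid lineage factors 10 fell and 1 rose, with a median of −0.74, against 6.31% lower and 5.42% higher over all probe sets. Of those with an untreated mean of at least 6 the fallers were 42.9%, against 12.1% of all such probe sets. This filter admits genes by the condition in which falls are high. MEF2C, a MADS-box factor, fell from 13.74 and 13.62 to 10.43 and 10.07 (−3.43, standard error 0.26, adjusted p = 8.68e-05), and FLI1, an ETS factor, from 12.46 and 12.05 to 9.23 and 8.43 (−3.42). MYB, a factor of myeloid progenitors, fell from 12.87 and 12.49 to 10.54 and 10.22 (−2.30), and CEBPA, which drives granulocyte and monocyte differentiation, from 12.86 and 11.90 to 9.81 and 9.73 (−2.61). SPI1, which encodes PU.1, was not called at 13.95 and 13.96 against 14.52 and 14.46 (0.53, adjusted p = 0.18), and IRF8, a partner of PU.1, rose by 2.12. The nuclear receptors NR4A1, NR4A2 and NR4A3, which rose, were counted with the immediate early factors and not here. Of 22 other nuclear receptors and coactivators 8 fell and 0 rose in limma at either p, with a median of −0.82. Beside PPARGC1A these included PPARD from 12.99 and 13.04 to 10.49 and 10.43 (−2.55, standard error 0.22, adjusted p = 0.000177), the thyroid hormone receptor THRA (−1.85) and the vitamin D receptor VDR (−1.81). The Krüppel-like factors went the other way, with 5 of 15 called higher and 0 lower (3 at an unadjusted p under 0.05). KLF5 rose by 4.51, KLF2, which restrains NFκB, from 7.14 and 6.95 to 10.87 and 10.75 (3.76), and KLF10, induced by TGF-β, by 2.83.

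Cholesterol genes changed in both directions. Of 20 genes 5 rose (25%) and 4 fell (20%), against 5.42% and 6.31% of all probe sets, with a list median of 0.10. Of the synthesis enzymes, HMGCS1 (2.41), SQLE (2.48) and LSS (2.30) rose, as did INSIG1, the sterol-regulated brake on this pathway, from 7.31 and 7.75 to 11.72 and 11.76 (4.21, standard error 0.24, adjusted p = 2.12e-05). APOE was the remaining rise (1.03, adjusted p = 0.0337). NCEH1, which hydrolyses cholesterol esters in macrophages, fell from 11.41 and 11.29 to 7.0 and 7.36 (−4.17, standard error 0.30, adjusted p = 6.98e-05), and NPC1, which exports cholesterol from lysosomes, by 1.40. IDI1, another enzyme of the synthesis pathway, fell by 1.24. LPCAT3, a phospholipid-remodelling enzyme, had a log2 fold change of −1.0 with an adjusted p of 0.0472 and lost its call without untreated duplicate 1, untreated duplicate 2 or LPS duplicate 2 and with arrays centred on their medians. ABCA1, a cholesterol exporter, was not called (0.73). The counts were 3 rises without untreated duplicate 1, and 2 falls without either untreated duplicate or LPS duplicate 2.

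Promoters of NCEH1 and IPCEF1 are shown because they hold the PU.1 motif GAGGAAGT, which 8 of 60 promoters of genes that fell at least 8-fold did, as did 8 of 110 promoters of genes that rose at least 16-fold. The 150 bases before the start site are printed as above (GRCh38.p14; NCEH1 at chr3:172711068-172711217 and IPCEF1 at chr6:154356804-154356953, both on the minus strand), with matches on either strand in capitals, at −67 to −60 in both genes and also at −50 to −43 in IPCEF1.
NCEH1: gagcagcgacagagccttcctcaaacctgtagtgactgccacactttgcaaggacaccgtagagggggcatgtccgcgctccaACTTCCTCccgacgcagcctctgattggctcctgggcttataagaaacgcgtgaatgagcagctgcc
IPCEF1: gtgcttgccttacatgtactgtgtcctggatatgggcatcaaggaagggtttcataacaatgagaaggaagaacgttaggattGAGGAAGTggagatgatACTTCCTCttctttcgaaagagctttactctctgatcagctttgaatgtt

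Over all genes, promoters were described by motif counts without a test. A RefSeq window of 300 bases, 250 before and 50 after the start site, was matched for 14245 of 17750 genes, including 816 of 1034 that rose and 1000 of 1209 that fell, and both strands were searched. The PU.1 motif was held by 2.57% of all promoters, 2.60% of those of genes with a mean of at least 6 that were not called, 4.40% of those that fell and 3.55% of those that rose. Among strong changes it was held by 13.3% of the 60 that fell at least 8-fold and 7.27% of the 110 that rose at least 16-fold, which are 8 promoters in each case. The TATA box TATAAA was held by 9.41% of all promoters, 5.89% of those not called at a mean of at least 6, 11.5% of those that rose and 4.30% of those that fell. In the strong classes the shares were 20.9% of the rises and 11.7% of the falls. The NF-κB consensus was held by 12.4% of all promoters, 16.7% of those that rose and 12.9% of those that fell, and by 16.4% of the strong rises and 18.3% of the strong falls. The AP-1 motif TGANTCA was found in 5.76% of all promoters, 5.51% of those that rose and 4.60% of those that fell. Those not called at a mean of at least 6 held it in 3.98%. In the strong classes the AP-1 shares were 6.36% of the rises (7 promoters) and 8.33% of the falls (5 promoters).

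Lysosomal, autophagy and transporter genes held single large changes. Over all probe sets 6.31% fell and 5.42% rose, and of those with a mean of at least 6 in whichever condition was higher 11.5% and 9.7%. Of 40 lysosomal genes 7 fell (17.5%) and 3 rose (7.5%), with a median of −0.04. SLC29A3, which exports nucleosides from lysosomes, led the falls, from 12.19 and 11.72 to 8.26 and 8.31 (−3.67, standard error 0.25, adjusted p = 5.5e-05), followed by SLC38A12 (−3.59). The lysosomal protease gene CTSD stood at 17.77 and 17.72 against 17.78 and 17.61. MCOLN2, a calcium channel of the endolysosome, rose from 5.20 and 5.36 to 10.58 and 10.83 (5.43), and HEXA, a hexosaminidase subunit, by 1.65. Of 32 autophagy genes 6 fell (18.8%) and 3 rose (9.38%), with a median of −0.33. The cargo receptors OPTN (3.01) and SQSTM1 (1.65) rose, and the lipid scramblase ATG9A (−2.23) and the protease ATG4C (−2.17) fell. Of 354 solute carrier genes 36 fell (10.2%) and 22 rose (6.21%). SLC31A1, the copper importer, fell from 13.03 and 13.29 to 10.21 and 10.20 (−2.96), while SLC7A11, the cystine importer, rose from 7.55 and 8.20 to 11.81 and 11.77 (3.92) and SLC7A1, the arginine importer, by 3.33. Each of these transporters separated the arrays of the 2 conditions, as every called gene did.

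Chromatin, repair and cell cycle genes had more falls than rises. Of 53 histone-modifying enzymes 8 fell and 5 rose, with a median of −0.32. Among the 50 with an untreated mean of at least 6, 14% fell, close to the 12.1% over all such probe sets. KDM6B, a demethylase of H3K27, rose from 8.83 and 8.04 to 13.60 and 13.45 (5.08, standard error 0.31, adjusted p = 2.77e-05) and DOT1L, the H3K79 methyltransferase, by 3.17, while EHMT2, an H3K9 methyltransferase, fell from 10.90 and 11.13 to 8.72 and 8.19 (−2.56, standard error 0.28, adjusted p = 0.000769) and HDAC5, a deacetylase, fell by 1.89. The count of falls in this list was 5 without untreated duplicate 1, LPS duplicate 1 or LPS duplicate 2. Of 46 DNA repair genes 11 fell (23.9%) and 1 rose, with a median of −0.43. The falls made up 30.6% of those with an untreated mean of at least 6, against 12.1% of all such probe sets. This filter admits genes by the condition in which falls are high. FANCE, of the Fanconi core complex, fell from 6.91 and 6.48 to 4.25 and 4.06 (−2.54), XRCC1, a scaffold of single-strand break repair, fell by 1.61 and ERCC5, an endonuclease of nucleotide excision repair, fell by 1.43, while NBN, of the double-strand break sensor, rose by 1.86. Without untreated duplicate 1 the count of rises was 3. Of 35 genes of G2 and mitosis 11 fell and 0 rose in limma at either p (median −0.76), among them CCNA2, which encodes cyclin A2, from 9.83 and 9.58 to 8.23 and 7.84 (−1.66, standard error 0.30, adjusted p = 0.00912), and the spindle checkpoint kinase TTK (−1.83). The count was 7 among probe sets with a mean of at least 6 and 6 without untreated duplicate 1. MKI67, a proliferation marker, was not called at 10.98 and 10.97 against 10.42 and 10.32. Of 42 S phase genes 5 fell and 0 rose in limma at either p (median −0.51), PRIM1, a primase subunit (−2.14), and PCNA, the replication clamp (−1.43), among them. Of S phase genes with an untreated mean of at least 6, 15.2% fell, also close to that share.

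Gene families taken by symbol were counted in the same way. They are no matched background for the lists above, since calls depended on level and the families differ in level. Median untreated values ran from 3.47 for olfactory receptor genes to 16.4 for ribosomal protein genes. Over all probe sets 6.31% fell and 5.42% rose. Of 482 zinc finger genes named ZNF 47 fell (9.75%) and 4 rose, and among the 278 with an untreated mean of at least 6 the falls were 14.4%, against 12.1% over all such probe sets. Without untreated duplicate 1, 30 fell. Of 59 TRIM genes 6 fell (10.2%) and 0 rose (4 at an unadjusted p under 0.05 in limma). Of 81 RNF genes 8 fell (9.88%) and 5 rose (6.17%), RNF144B by 6.03 and RNF19B by 3.93. Of 39 kinesin genes 5 fell (12.8%) and 1 rose (2.56%). Falls were 3 without untreated duplicate 1, untreated duplicate 2 or LPS duplicate 2 and among probe sets with a mean of at least 6. Of 62 receptors named GPR 5 rose (8.06%) and 3 fell (4.84%), with 5 falls without LPS duplicate 1. Of 350 olfactory receptor genes, which lie mostly at background, OR2T3 was called higher (1.19) and OR2T29 lower (−1.24), a share of 0.286% in each direction, and both calls were lost without either untreated duplicate or without LPS duplicate 2. Without LPS duplicate 1, 5 olfactory receptor genes were called higher. Of 52 ribosomal protein genes 1 fell, RPS27L, which encodes a relative of a ribosomal protein, a call lost without untreated duplicate 1 or LPS duplicate 2. Of 32 NADH dehydrogenase subunit genes 0 were called in limma under any alternative, and 5 were lower at an unadjusted p under 0.05. Single calls also appeared when an array was left out: without LPS duplicate 1, 1 survival gene and 1 Krüppel-like factor were lower and the falls among signalling brakes were 2, and without untreated duplicate 2, 1 TRIM gene was higher and 2 ribosomal protein genes were lower.

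**Figure D5:**
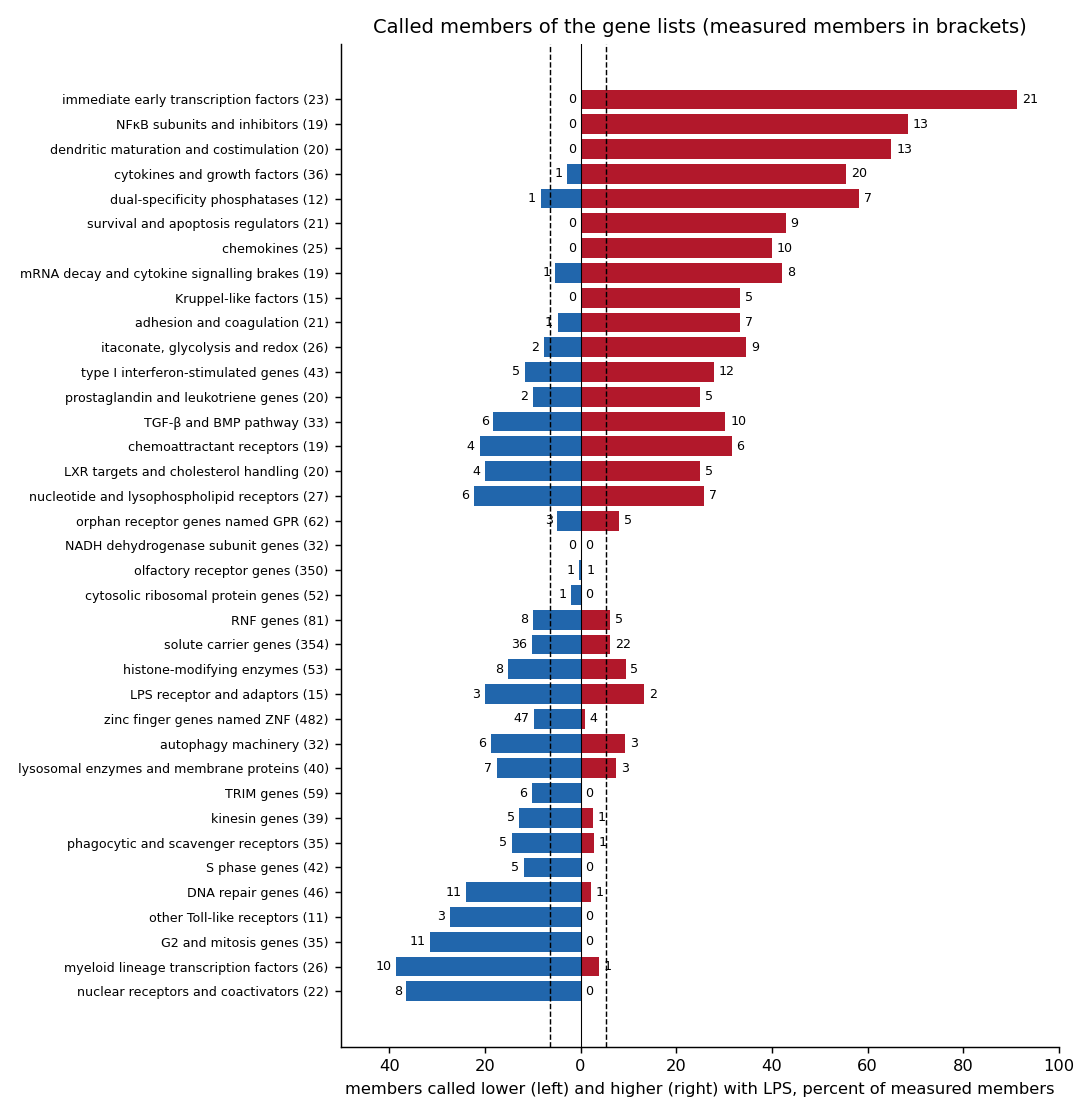
Percent of measured members called lower (blue, left) and higher (red, right) with LPS in the gene lists described here, ordered by the difference of the shares, with counts at the bars and measured members in brackets. Dashed lines mark the shares over all probe sets, 6.31% lower and 5.42% higher. The lists run from immediate early transcription factors (21 of 23 higher) to nuclear receptors and coactivators without the NR4A genes (8 of 22 lower).

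The 4 arrays with epirubicin, which share no array with this comparison, gave a second LPS contrast. Both contrasts came from one model of all 8 arrays and use the same variance estimate for a probe set, so that their calls are not independent. With epirubicin 5.53% of all probe sets were called higher and 6.65% lower. Of the 1132 probe sets called higher 811 were also called higher there (71.6% of these and 70.2% of the rises called with epirubicin), and of the 1319 called lower 823 (62.4% and 59.3%). Positive log2 fold changes were seen in 1093 of the rises and negative ones in 1273 of the falls, and 5 probe sets were called in opposite directions. Their medians were 1.76 without and 1.70 with epirubicin for the rises, and −1.51 and −1.33 for the falls, after the probe sets had been chosen on the first values of each pair. CCL20 rose by 11.09 without and 10.43 with the drug, TLR4 changed by −2.60 and −1.82, and MERTK by −4.32 and −4.02. Other named genes differed more, in both directions. NR4A2 rose by 10.44 without and 7.64 with the drug and CCR7 by 9.11 and 7.58, while BCL2A1 rose by 3.40 and 5.45. CX3CR1 changed by −3.23 and −5.25. A differing LPS response was called at an adjusted p of at most 0.05 in 1 probe set, which is none of the genes named here, and 1542 probe sets had an unadjusted p under 0.05 for that difference. With 2 arrays per condition, so few adjusted calls do not show that the responses were alike. The paper reported that epirubicin reduced the LPS-induced changes of its core set of strongly regulated genes.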

How the data were processed

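RNA of THP-1 macrophages was hybridised to Clariom S HT arrays, 1 array per sample and 2 per condition. The authors normalized all 8 arrays together by signal space transformation and robust multi-array averaging, and the deposited values are log2 signals. Their software version was not given in the sources used here. Of 24351 deposited rows, 20893 gene probe sets were tested, and 555 rows without a map position and 2903 control rows were set aside. A single gene symbol was found for 17803 probe sets, 17705 from the platform annotation and 98 from annotation columns supplied with the study, whose fold changes and p-values were not used, and 3090 stayed without a single name. Of several probe sets of a gene the one with the highest mean over the 8 arrays was kept, giving 17750 genes.

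A model with a mean for each of 4 conditions was fitted with limma 3.58.1 (lmFit and eBayes) in R 4.3.3 with data.table (1.17.8), and p-values were adjusted by Benjamini-Hochberg over all 20893 probe sets. Values in parentheses after a gene are log2 fold changes of LPS against untreated. The standard errors rest on 4 residual and 4.25 prior degrees of freedom. The number of arrays limits the precision. The fit was tested on simulated data. The members and gene lists were chosen with earlier results of these data known. Named genes are the 12 largest rises and falls, up to 4 called members of a list by p-value (3 of each direction where both occur), the LPS receptor genes, the 6 largest rises from and falls to a mean of at least 8, and members of counts of 5 or fewer. The genes REL, RELA, RELB, TNF, IL6, IL10, IL12B, CXCL1, CXCL2, CXCL3, CCL2, CCL5, CD80, CD86, TLR2, IFNB1, SKI, CEBPA, SPI1, ABCA1, GAPDH, CTSD and MKI67 were named after their values were seen. Promoter windows and their coordinates are from RefSeq (GRCh38.p14), and motifs were searched in Python 3.11.15. Figures were drawn with matplotlib 3.10.9. Alternatives were the 4 arrays alone, a mean-dependent robust prior, an adjusted p threshold, a 4-fold threshold, quantile normalization, arrays centred on their medians, a filter on low values, the duplicate number as a block, leaving out each array and, chosen after seeing the data, adding the 555 rows. The results of 1 gene list are not reported here.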

Additional observations from a re-analysis of the deposited data

How the results depend on the processing

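The main counts were 1132 probe sets higher and 1319 lower. Under a 4-fold threshold they were 476 and 303, so that rises made up 61.1% of the calls in place of 46.2%. Leaving out each array gave 962 to 1027 higher and 1061 to 1173 lower. The counts under the other alternatives stayed within 1.5 times of these, with rises at 51.4% of the calls after centring the arrays on their medians, which shifted the median of all probe sets by 0.0671. With the 555 rows without a map position, chosen after seeing the data, 1158 were higher and 1347 lower. Calls whose adjusted p was 0.05 or less numbered 1045 and 1189, and 676 to 737 and 553 to 741 when an array was left out. The duplicates with the same number did not deviate together (correlations −0.00876 to 0.0208), and with the number as a block, a fit that assumes a pairing the labels do not state, 1131 were higher and 1322 lower. For 183 named genes, 2290 of 2373 recomputed values kept their direction and call, 83 lost the call and 0 reversed. Of 1066 recomputed counts of list members, 94 moved by more than 1.5 times. Signals below 6 lie within the range of the negative controls and limit the size of a fold change there.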
